A study of Mus musculus with 9 samples.

Results

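The T-box genes encode transcription factors that bind DNA through a shared domain, the T-box, and 9 of them (Tbx1, Tbx2, Tbx3, Tbx4, Tbx5, Tbx15, Tbx18, Tbx20 and Tbx22) were followed through the developing mouse skull. The 9 genes were chosen by name, with the FPKM of these same libraries in view, out of 17 T-box genes and 43539 genes with usable values. Their levels and differences are therefore given as a description, with no test. FPKM, the fragments of a gene scaled by transcript length and by sequencing depth, corrects for length, so levels of different genes are comparable on this scale.

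RNAseq was carried out on tissue of E14.5 embryos from a cross of Msx2-Cre to CAGF8 mice, labelled as mixed strain, with 3 libraries in each of 3 groups. The MCAGF8 vault is the cranial vault of embryos that carry Msx2-Cre together with the CAGF8 allele, which expresses Fgf8b once Cre has acted. The control vault is the same tissue from littermates that the labels call wildtype and the methods describe as lacking Cre. These controls carry the CAGF8 allele in its silent form, since the CAGF8 colony is homozygous. The control base is the cartilaginous cranial base of control embryos. Skin had been peeled off, and Msx2-Cre acts in surface ectoderm, so the dissection aimed at tissue beneath the cells in which the allele is switched on. Yet 10 epidermis markers summed to 360 to 917 FPKM in MCAGF8 vault libraries and 21.9 to 88.8 FPKM in control vault libraries. By median, Epcam alone of these markers was lower in MCAGF8. Whether cells with the active allele remained in the tissue was not tested. A library is thus a pool of 3 dissections, and a group holds 9. By the methods, the base was dissected from control embryos after their vault had been taken, so these groups draw on the same embryos. Which embryos entered which pool is not stated. The main fit described below treated base and control vault libraries as independent.

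The control base libraries were uneven. The summed FPKM of 10 cartilage markers was 892 and 1222 in control base replicates 1 and 3 but 8930 in replicate 2, where Col2a1, the main cartilage collagen, stood at 2292 FPKM against 163 to 268 in the other base libraries. Replicates 1 and 3 thus had less cartilage marker RNA than any vault library, in which the sum ranged from 1718 to 4511. Without replicate 2, the number of genes called by limma between the control base and the control vault went from 573 to 1322. Fgf8, the gene of the allele, overlapped between the vault groups, at 9.43 to 19.5 FPKM in MCAGF8 and 3.01 to 13.5 FPKM in controls (limma adjusted p = 0.969).

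As background, T-box factors act as activators or repressors depending on the member and its partners. Tbx1 patterns the pharyngeal arches and their muscle. Tbx2 and Tbx3 are mainly repressors, closely related to each other, and Tbx4 and Tbx5 are known for hindlimb and forelimb outgrowth. Tbx15 and Tbx18 mark mesenchyme, including dermal and skeletal progenitors, and Tbx15 loss in mice alters the skull and coat pattern. Tbx20 is a cardiac factor, and TBX22 is mutated in X-linked cleft palate.

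To show how alike and how distinct these genes are to a sequencing read, a stretch of 60 bases of the T-box coding sequence is printed for each, read in frame from GENCODE M21 transcripts (GRCm38). It was picked as the stretch of Tbx15 with the highest summed match to the other members, each taken at its best match. The counts of equal bases below are therefore not typical of the whole coding sequence. The stretch spans an exon junction in all 9 genes. Capitals mark bases that differ from Tbx15, which had the highest mean level of the 9 in each group. The stretches lie at chr3:99308991-99313019 on the plus strand for Tbx15, chr9:87727459-87729513 on the minus strand for Tbx18, chrX:107677725-107678558 on the plus strand for Tbx22, chr11:85890899-85898499 on the plus strand for Tbx4, chr5:119838738-119840773 on the plus strand for Tbx5, chr16:18585130-18586588 on the minus strand for Tbx1, chr9:24769811-24770732 on the minus strand for Tbx20, chr11:85833449-85834626 on the plus strand for Tbx2 and chr5:119672352-119674032 on the plus strand for Tbx3, each span including the intron.
Tbx15: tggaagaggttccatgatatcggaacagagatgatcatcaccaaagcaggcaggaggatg
Tbx18: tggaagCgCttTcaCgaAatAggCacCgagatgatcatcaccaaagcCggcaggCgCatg
Tbx22: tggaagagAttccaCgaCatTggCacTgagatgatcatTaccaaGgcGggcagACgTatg
Tbx4: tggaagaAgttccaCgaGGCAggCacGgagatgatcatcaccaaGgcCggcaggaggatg
Tbx5: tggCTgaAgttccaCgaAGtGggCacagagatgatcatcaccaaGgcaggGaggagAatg
Tbx1: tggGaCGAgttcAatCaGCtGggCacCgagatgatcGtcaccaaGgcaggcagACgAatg
Tbx20: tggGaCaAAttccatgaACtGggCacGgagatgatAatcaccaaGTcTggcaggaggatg
Tbx2: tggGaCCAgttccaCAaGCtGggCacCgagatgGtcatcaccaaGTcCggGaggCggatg
Tbx3: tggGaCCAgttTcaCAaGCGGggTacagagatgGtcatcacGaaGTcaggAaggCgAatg

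Tbx4 held 50 of the 60 bases of Tbx15, Tbx18 49 and Tbx3 41, the lowest of the members. Tbx2 and Tbx3 had 52 bases in common, the highest count of any pair, followed by Tbx4 and Tbx5 with 51. The longest exact run shared between transcripts of any pair of the 9 genes was 42 bases, between Tbx5 and Tbx22, which is shorter than the single-end reads of these libraries.

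The base and the vault differed in how the RNA of the 9 genes was shared out. The vault groups overlapped in the share of Tbx15 and Tbx18. They did not overlap in that of Tbx1, Tbx2 and Tbx3, at 7.04% to 10.2% in MCAGF8 vaults and 10.4% to 20.4% in control vaults. The summed FPKM of Tbx1, Tbx2 and Tbx3 did overlap, at 8.01 to 11.1 FPKM in MCAGF8 vaults and 8.20 to 14.4 FPKM in control vaults. A share also depends on the sum of all 9 genes, which was higher in the MCAGF8 vault. The 9 genes summed to 98.6 ± 16.1 FPKM in the control base, to 73.8 ± 4.34 FPKM in the control vault and to 108 ± 6.01 FPKM in the MCAGF8 vault (mean ± SD, n = 3 each). Tbx15 and Tbx18 together made up 81.0% ± 5.86 of this sum in control vaults, 87.2% ± 2.08 in MCAGF8 vaults and 39.4% ± 16.0 in the base (mean ± SD, n = 3 each). Tbx1, Tbx2 and Tbx3 together held 55.4% ± 13.4 in the base, 15.9% ± 5.06 in control vaults and 8.85% ± 1.63 in MCAGF8 vaults (mean ± SD, n = 3 each). Control vault replicate 2, at 87.5% for Tbx15 and Tbx18, lay within the MCAGF8 range. In the control base the share of Tbx15 and Tbx18 was lowest in replicate 3, at 26.8%, and highest in replicate 2, at 57.4%.

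**Figure D1:**
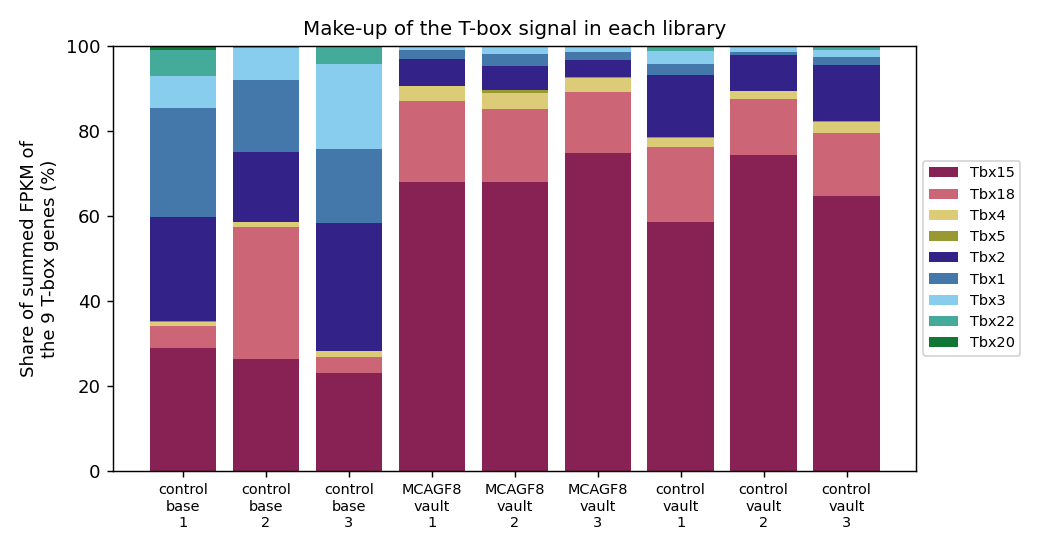
Share of the summed FPKM of the 9 T-box genes held by each gene (y axis, percent) in each of the 9 libraries (x axis), as stacked bars. Tbx15 and Tbx18 fill 76.1% to 89.2% of the bar in the 6 vault libraries and 26.8% to 57.4% in the 3 control base libraries.

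Within the control base the order of mean levels was Tbx15 (25.6 FPKM), Tbx2 (22.8 FPKM), Tbx1 (19.3 FPKM), Tbx18 (14.8 FPKM), Tbx3 (11.4 FPKM), Tbx22 (3.20 FPKM) and Tbx4 (1.22 FPKM). The ranges of Tbx15 and Tbx2 overlapped there, as did those of Tbx2 and Tbx1, and that of Tbx18 spanned all of them. Within the control vault the order was Tbx15 (48.8 FPKM), Tbx18 (11.2 FPKM), Tbx2 (8.84 FPKM), Tbx4 (1.67 FPKM), Tbx3 (1.45 FPKM), Tbx1 (1.27 FPKM) and Tbx22 (0.519 FPKM). Tbx15 was apart from all others, whereas Tbx4, Tbx3 and Tbx1 were not separated from each other beyond their spread. The MCAGF8 vault kept Tbx15 (76.2 FPKM), Tbx18 (18.2 FPKM) and Tbx2 (5.60 FPKM) on top, followed by Tbx4 (3.75 FPKM), Tbx1 (2.57 FPKM), Tbx3 (1.38 FPKM) and Tbx22 (0.152 FPKM). In all groups Tbx5 and Tbx20 were below 1 FPKM in each library, and at a mean below 0.5 over the 9 libraries these 2 genes were left out of the fit, leaving 7 of the 9.

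**Figure D2:**
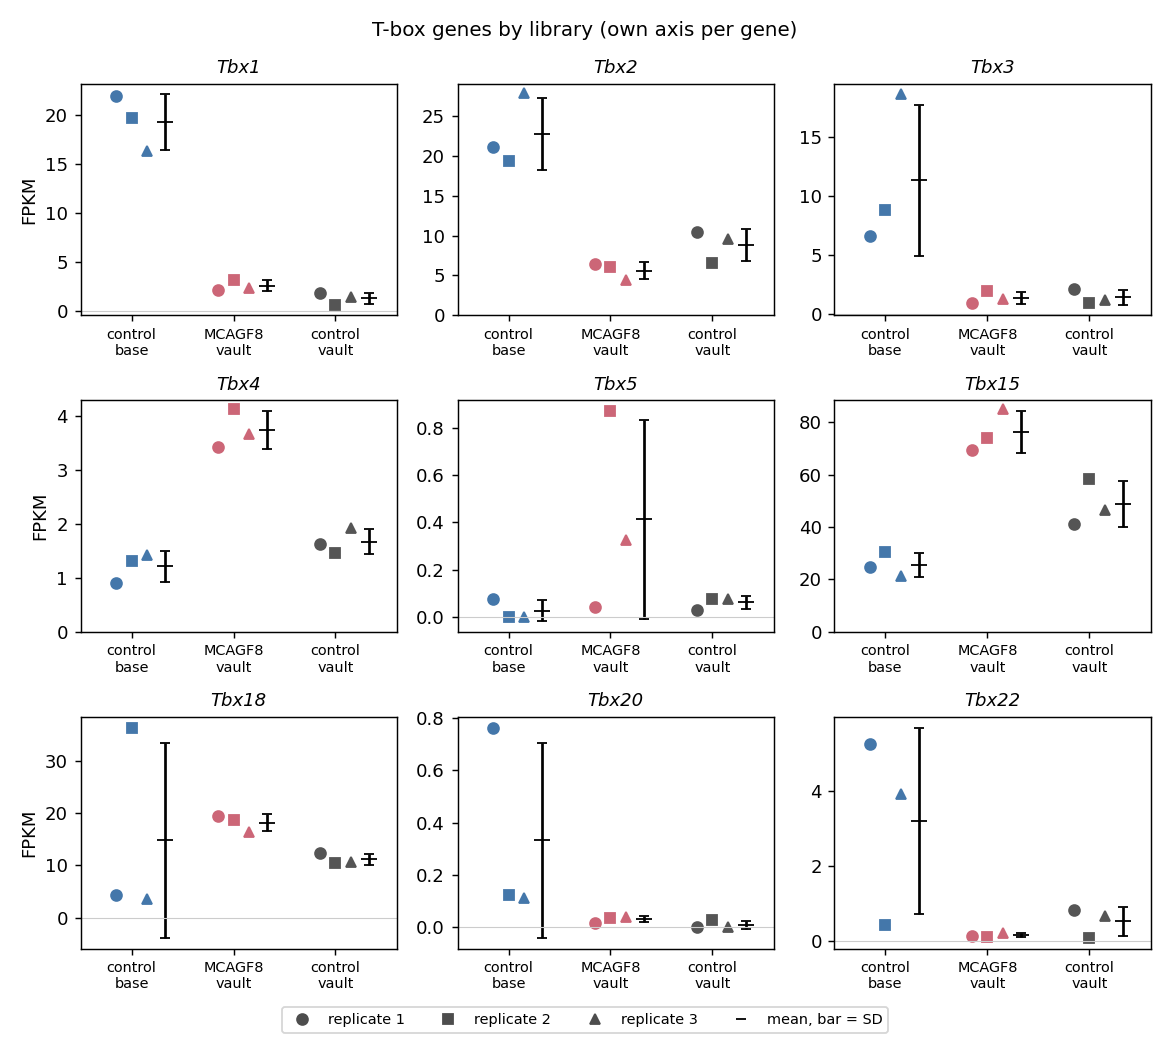
FPKM of each T-box gene (y axis, own linear scale per gene) in the control base, MCAGF8 vault and control vault; points are single libraries, with shapes for replicate numbers, and the bar beside them is the mean with its SD over 3 libraries. Tbx1, Tbx2 and Tbx3 lie highest in the control base, Tbx4 and Tbx15 highest in the MCAGF8 vault, and Tbx18 is split in the control base between 36.4 FPKM and values of 3.58 and 4.42 FPKM.

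Tbx1, the pharyngeal factor, stood at 21.9, 19.7 and 16.3 FPKM in control base replicates 1 to 3. It was at 1.78, 0.643 and 1.39 FPKM in the control vault libraries and at 2.17, 3.17 and 2.37 FPKM in the MCAGF8 vault libraries. No group overlapped with another, and the base libraries were far above both vaults. The control base mean of 19.3 ± 2.83 FPKM (SD, n = 3) was 15.2 times the control vault mean of 1.27 ± 0.580 FPKM (SD, n = 3) and 7.50 times the MCAGF8 mean of 2.57 ± 0.527 FPKM (SD, n = 3). The MCAGF8 mean was 2.02 times that of the control vault, a log2 difference of 0.68 on the log2(FPKM + 1) scale. The summed skeletal muscle markers (10 genes, none at 0 in any library) did not order the libraries as Tbx1 did, at 1636 to 10958 FPKM in the base, 859 to 5484 FPKM in the control vault and 16.8 to 178 FPKM in the MCAGF8 vault. The 10 epidermis markers summed to 92.7 to 668 FPKM in the base, 21.9 to 88.8 FPKM in the control vault and 360 to 917 FPKM in the MCAGF8 vault, so the sum overlapped between the base and the MCAGF8 vault. By median, Epcam and Krt15 were highest in the base and the other 8 markers in the MCAGF8 vault. The part of muscle or epithelium in the Tbx1 level was not tested, and in bulk tissue fewer cells of a type and less RNA per cell cannot be told apart.

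Because Tbx1 had the widest difference between base and control vault of the 7 tested members on the log2(FPKM + 1) scale (3.18), the promoter window of its upstream start is shown, from RefSeq (GRCm38.p6), 250 bases before to 50 after the start, chr16:18590622-18590921 on the minus strand. It was searched on both strands for AGGTGT, the half-site that T-box proteins bind, and capitals mark the match.
Tbx1 promoter: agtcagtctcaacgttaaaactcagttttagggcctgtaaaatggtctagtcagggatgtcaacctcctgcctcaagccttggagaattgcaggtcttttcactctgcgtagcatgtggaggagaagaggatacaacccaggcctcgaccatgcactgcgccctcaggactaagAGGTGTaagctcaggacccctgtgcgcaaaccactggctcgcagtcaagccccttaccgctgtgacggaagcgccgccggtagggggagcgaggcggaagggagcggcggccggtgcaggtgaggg

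This was the single match in 8 windows of the 5 members with a promoter entry, Tbx1, Tbx4, Tbx18, Tbx20 and Tbx22. Over all 32851 RefSeq mouse promoters of 300 bases, 13.7% hold the motif on either strand, and a match of 6 letters is a description of the sequence only.

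Tbx2, a repressor that holds back cell cycle inhibitors, was at 21.1, 19.3 and 27.9 FPKM in the control base. The control vault libraries had 10.4, 6.56 and 9.54 FPKM and the MCAGF8 vault libraries 6.36, 6.03 and 4.39 FPKM. The base lay above both vaults in every library, and the MCAGF8 values lay just below the control vault ones without overlap. The control base mean of 22.8 ± 4.54 FPKM (SD, n = 3) was 2.58 times that of the control vault, 8.84 ± 2.03 FPKM (SD, n = 3), which in turn was 1.58 times the MCAGF8 mean of 5.60 ± 1.06 FPKM (SD, n = 3).

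Tbx3, the closest relative of Tbx2, was at 6.61, 8.84 and 18.6 FPKM in the control base. It read 2.17, 0.989 and 1.20 FPKM in the control vault and 0.935, 1.94 and 1.25 FPKM in the MCAGF8 vault. The base was again above both vaults, with replicate 3 the highest, and the vault groups overlapped. The control base mean of 11.4 ± 6.40 FPKM (SD, n = 3) was 7.81 times the control vault mean of 1.45 ± 0.631 FPKM (SD, n = 3). Between the vaults the log2 difference was -0.04, and it took the other sign when the libraries were rescaled to a common FPKM sum, at 0.05, or when MCAGF8 vault replicate 1 or control vault replicate 1 was left out. Neuron markers varied with Tbx3: their sum over 9 genes with values was 362, 439 and 1300 FPKM in control base replicates 1 to 3 and 40.6 to 93.0 FPKM in the vaults. The part of neural tissue in the Tbx2 and Tbx3 levels was not tested. Tbx3os1, which overlaps the start of Tbx3 on the other strand, makes the Tbx3 value uncertain, as the strand setting of the counting is not stated.

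**Figure D3:**
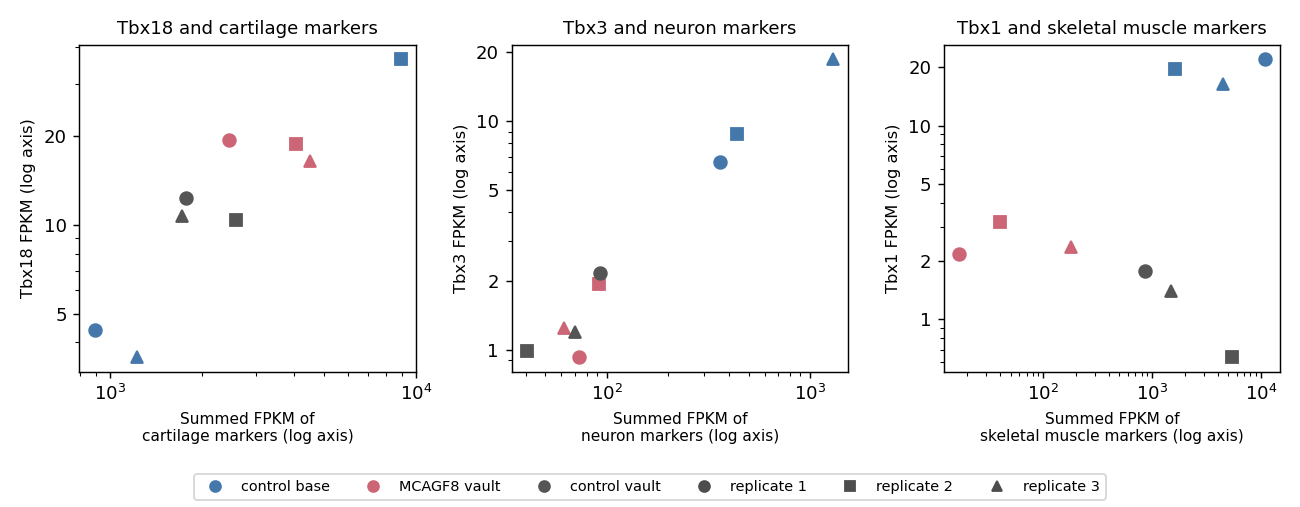
FPKM of Tbx18, Tbx3 and Tbx1 (y axes, log scale) against the summed FPKM of cartilage, neuron and skeletal muscle markers (x axes, log scale), one point per library, with colours for the 3 groups and shapes for replicate numbers. Control base replicate 2 is at the top right for Tbx18 and cartilage (36.4 and 8930 FPKM) and control base replicate 3 for Tbx3 and neurons (18.6 and 1300 FPKM), while Tbx1 is higher in the base at muscle sums that overlap with those of the control vault and lie above those of the MCAGF8 vault (16.8 to 178 FPKM).

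Tbx22, the palate gene, was at 5.25, 0.423 and 3.93 FPKM in the control base. The control vault held 0.816, 0.0762 and 0.664 FPKM and the MCAGF8 vault 0.135, 0.112 and 0.211 FPKM. Control base replicate 2, the library rich in cartilage markers, was low and fell within the range of the control vault. All 3 base libraries remained above the MCAGF8 vault. The control base mean of 3.20 ± 2.49 FPKM (SD, n = 3) was 6.17 times the control vault mean of 0.519 ± 0.391 FPKM (SD, n = 3) and 21.0 times the MCAGF8 mean of 0.152 ± 0.0517 FPKM (SD, n = 3).

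Tbx15, the mesenchymal factor with the highest mean of the 9 genes in every group, was at 24.8, 30.6 and 21.4 FPKM in the control base, 41.3, 58.5 and 46.7 FPKM in the control vault and 69.4, 74.1 and 85.1 FPKM in the MCAGF8 vault. No groups overlapped, with the MCAGF8 vault highest and the base lowest. The MCAGF8 mean of 76.2 ± 8.09 FPKM (SD, n = 3) was 1.56 times the control vault mean of 48.8 ± 8.80 FPKM (SD, n = 3) and 2.98 times the control base mean of 25.6 ± 4.64 FPKM (SD, n = 3). In the MCAGF8 vault between 10.3% and 14.2% of the tested genes had a higher level, and in the base between 29.8% and 42.0%. The 8 markers of dermis and hair follicle mesenchyme, none at 0 in any library, summed to 3909 to 4384 FPKM in the MCAGF8 vault, 2839 to 3290 FPKM in the control vault and 1379 to 1786 FPKM in the base. Col3a1, a fibrillar collagen, carried most of that sum, and by median only Col3a1 and Twist2 followed its order of groups. By median, Dpt, Sox18 and Dkk2 were highest in the control vault, and Crabp1, Lef1 and Enpp2 were lowest there. Whether dermal tissue contributes to the Tbx15 level was not tested.

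Tbx18, the relative of Tbx15 that marks perichondrial, somitic and mural mesenchyme, was at 12.4, 10.4 and 10.7 FPKM in the control vault and 19.5, 18.7 and 16.4 FPKM in the MCAGF8 vault. The vault groups did not overlap, and the MCAGF8 mean of 18.2 ± 1.57 FPKM (SD, n = 3) was 1.63 times the control mean of 11.2 ± 1.06 FPKM (SD, n = 3). In the control base it was at 4.42, 36.4 and 3.58 FPKM, so that replicate 2 was the highest of all 9 libraries and the other base libraries were the lowest. With all libraries the base mean was 1.32 times the control vault mean, and without control base replicate 2 it was 0.358 times. Against the base, the MCAGF8 mean was 1.23 times as high with all libraries and 4.56 times as high without that replicate. The same replicate had the highest cartilage sum. Within the vault groups the order differed. MCAGF8 vault replicate 3 had the highest cartilage sum of its group (4511 FPKM) and the lowest Tbx18. Control vault replicate 2 likewise had the highest cartilage sum of its group (2589 FPKM) and the lowest Tbx18. The part of cartilage in the Tbx18 level was not tested.

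Tbx4, the hindlimb factor, was at 1.63, 1.46 and 1.92 FPKM in the control vault, 3.44, 4.14 and 3.68 FPKM in the MCAGF8 vault and 0.897, 1.31 and 1.44 FPKM in the base. The MCAGF8 libraries were above all others at a low level, and the control vault was just above the base. The MCAGF8 mean of 3.75 ± 0.356 FPKM (SD, n = 3) was 2.24 times the control vault mean of 1.67 ± 0.232 FPKM (SD, n = 3) and 3.08 times the base mean of 1.22 ± 0.282 FPKM (SD, n = 3). Tbx2 lies 44 kb from Tbx4 on chromosome 11 in the GENCODE M21 annotation, and this linked pair ran in opposite directions between the vaults, with Tbx2 lower and Tbx4 higher in MCAGF8.

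Tbx5, the forelimb and heart factor, lies 148 kb from Tbx3 on chromosome 5 and was at 0.0409, 0.873 and 0.327 FPKM in the MCAGF8 vault. The control vault had 0.0312, 0.0771 and 0.0773 FPKM, and in the base it read 0.0769 FPKM in replicate 1 and was listed at 0 in the other replicates. MCAGF8 replicates 2 and 3 were above every other library and replicate 1 was not. Tbx20, the cardiac factor, was at 0.763, 0.122 and 0.109 FPKM in the base, at 0.0164, 0.0349 and 0.0367 FPKM in the MCAGF8 vault, and was listed at 0 in control vault replicates 1 and 3. Its base libraries were above all vault libraries, yet below 1 FPKM. Of the 7 cardiac markers, Myl4 and Actc1, which embryonic skeletal muscle also uses, carried most of the sum, which was 482 to 2253 FPKM in the base, 302 to 1597 FPKM in the control vault and 16.2 to 121 FPKM in the MCAGF8 vault. Of the other 5, Nppa and Nkx2-5 were below 1 FPKM in each library, while Tnni3 reached 5.41 FPKM, Myh6 3.19 FPKM and Myl7 1.39 FPKM. The part of cardiac tissue in the Tbx20 level was not tested.

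Counted over the 7 tested members, 3 were higher in the control base than in the control vault without overlap, 2 were lower and 2 overlapped. Of all 18714 genes tested, 8.86% were higher and 6.69% lower without overlap in that comparison. In the MCAGF8 vault against the control vault, 4 members were higher without overlap (Tbx1, Tbx4, Tbx15 and Tbx18), 1 was lower (Tbx2) and 2 overlapped, where 9.9% of all genes were higher and 9.35% lower. Against the control base, 2 members were higher in the MCAGF8 vault and 4 lower, where the share of all genes was 8.91% and 13.0%. These shares only give the scale, since the same values had chosen the members. The median log2 difference of the 7 members was 1.25 for base against control vault, 0.64 for MCAGF8 against control vault and -1.61 for MCAGF8 against base, beside medians over all tested genes of 0.07, -0.01 and -0.07.

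Other genes were tested with limma, where a call needed an unadjusted p under 0.05 and an adjusted p under 0.1 over all genes. Of the 8 other T-box genes, 3 passed the filter on low values and limma called none in any comparison, with 0 at an unadjusted p under 0.05. T, the notochord factor Brachyury, ranged from 0.593 to 0.979 FPKM in the base and from 0.205 to 0.285 FPKM in the control vault, while the MCAGF8 libraries, at 0.720, 0.234 and 0.939 FPKM, spanned both ranges. Tbx6, a factor of paraxial mesoderm, ranged from 0.379 to 1.46 FPKM over all libraries. Mga, which joins a T-box to a Max-binding domain, was uneven within each group, from 12.4 to 49.1 FPKM in the base, 12.9 to 35.7 FPKM in the MCAGF8 vault and 18.5 to 40.7 FPKM in the control vault. The group means of Mga were 26.1, 26.2 and 26.0 FPKM. Tbx10, Tbx19, Tbx21, Tbr1 and Eomes stayed below 0.5 FPKM in each library. The partners of the family, 18 tested corepressors and members of the Mga complex, gave 0 calls in any comparison, with 2, 2 and 1 genes at an unadjusted p under 0.05.

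The genes that work with or under the T-box factors were taken as 6 lists. Together with the 8 other T-box genes these held 115 names, of which 113 were in the table and 99 were tested. The 3 tested other T-box genes described above are thus among the 99. Between the control base and the control vault limma called 13 of these 99, with 5 higher and 8 lower in the base, where 1.85% of all genes were called higher and 1.21% lower. Here and in the comparisons below such shares only give the scale, since the lists were chosen with earlier results of these data known. In the Tbx1 list 3 of 23 genes were higher in the base and none was lower. Isl1, a LIM factor of pharyngeal mesoderm and neurons, was at 17.9, 38.8 and 65.7 FPKM in the base and at 0.301 to 2.11 FPKM in the control vault, a log2 difference of 4.31 ± 0.51 (SE) with a limma adjusted p of 0.00613. Isl1 is also one of the neuron markers described above. Foxa2, an endoderm and floor plate factor, was higher by 1.72 ± 0.30 on the log2 scale (SE; limma adjusted p = 0.0264, and 0.116 without control vault replicate 3), and Cyp26a1, which degrades retinoic acid, by 1.58 ± 0.24 (SE; limma adjusted p = 0.016). The Cyp26a1 ranges were 8.11 to 9.12 FPKM in the base and 1.75 to 2.86 FPKM in the control vault.

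Hand2, a branchial arch and limb factor on the Tbx2 and Tbx3 list and on the Tbx4 and Tbx5 list, was higher in the base by 2.79 ± 0.59 (SE; limma adjusted p = 0.0547), and Pax9, of palate and pharynx, by 2.59 ± 0.51 (SE; limma adjusted p = 0.0466). Hand2 was at 16.7, 1.58 and 7.26 FPKM in the base and below 0.1 FPKM in each control vault library. Its call was lost without any 1 of the control vault replicates, without control base replicate 3 or without MCAGF8 vault replicate 1 (limma adjusted p = 0.104 to 0.191). The Pax9 call was lost without control base replicate 3 or without control vault replicate 2 or 3 (limma adjusted p = 0.125 to 0.172).

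The 8 list genes called lower in the base were headed by homeobox factors. Lmx1b, a LIM factor of limb and cranial mesenchyme, was at 0.783 to 2.59 FPKM in the base and 23.1 to 26.1 FPKM in the control vault, a log2 difference of -3.49 ± 0.28 (SE; limma adjusted p = 0.00107). En1, a homeobox gene of cranial mesenchyme, differed by -2.71 ± 0.29 (SE; limma adjusted p = 0.00424), and Msx2, whose promoter drives the Cre of this cross, by -2.63 ± 0.20 (SE; limma adjusted p = 0.000825). Alx4 (-2.21), Wnt2 (-1.99) and Gja1 (-1.57), a gap junction gene known as a Tbx2 target, were also called, as were Wnt2b (-1.48) and Prrx1 (-1.22). Of these 8 genes, 5 kept their call when each library was left out in turn (Lmx1b, En1, Msx2, Gja1 and Prrx1). Without control vault replicate 3 the number of list genes called fell to 7, and without control base replicate 2 it was 23.

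**Figure D4:**
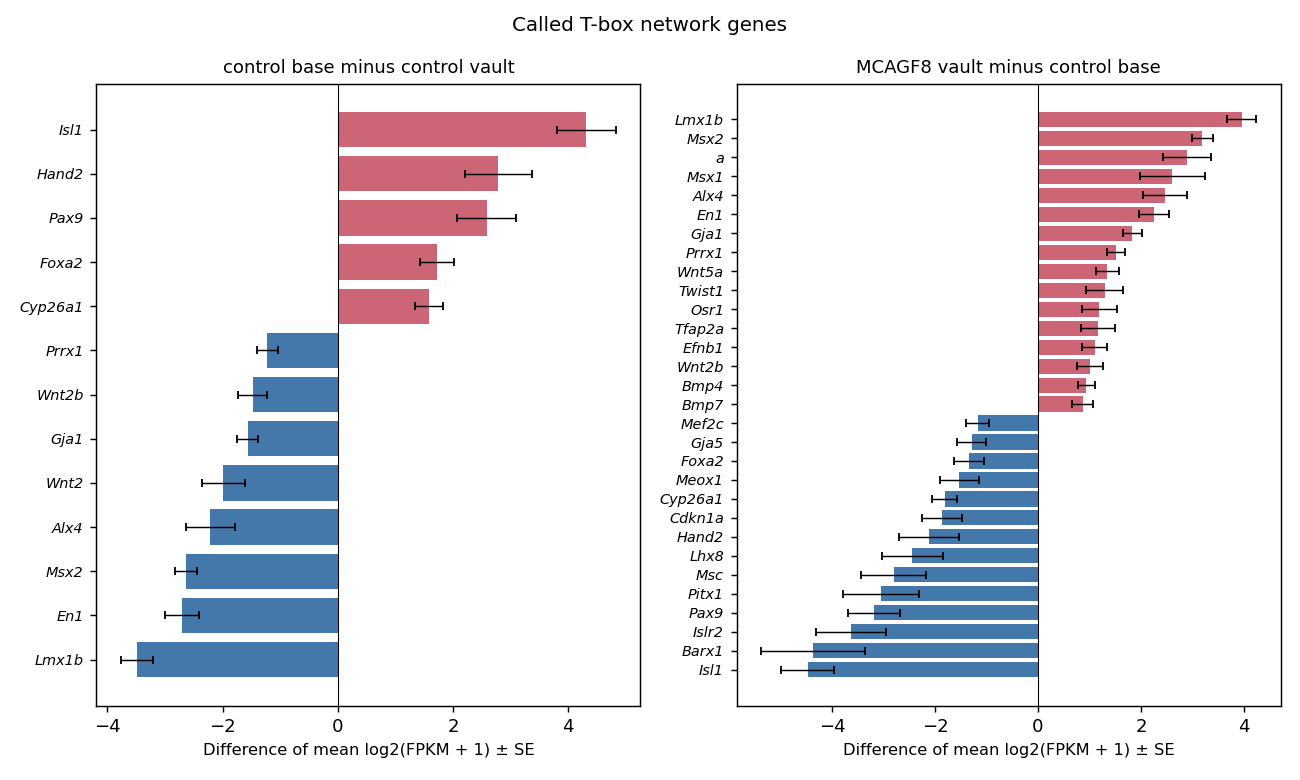
Difference of mean log2(FPKM + 1) with its SE (x axis) for the list genes called by limma (y axis), for the control base minus the control vault (13 genes) and for the MCAGF8 vault minus the control base (30 genes); red bars are higher and blue bars lower in the group named first. Isl1 is at the top on the left (4.31) and at the bottom on the right (-4.47), and Lmx1b is at the opposite ends (-3.49 and 3.95).

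In the MCAGF8 vault against the control vault limma called 4 of the 99 list genes, 3 higher and 1 lower, where 0.23% of all genes were called higher and 0.374% lower. The agouti gene, a, a coat colour signal of dermal papillae that Tbx15 is known to restrict, was at 20.3, 31.9 and 16.0 FPKM in MCAGF8 and 1.33, 2.16 and 2.65 FPKM in controls, a log2 difference of 2.93 ± 0.46 (SE; limma adjusted p = 0.0511). Tfap2a, a factor of neural crest and epidermis, was at 5.28 to 7.74 FPKM against 0.528 to 1.42 FPKM (1.90 ± 0.33, SE; limma adjusted p = 0.0723). Wnt5a, a Wnt ligand on the Tbx1 list, was at 72.4 to 92.3 FPKM against 23.8 to 39.0 FPKM (1.43 ± 0.22, SE; limma adjusted p = 0.0508). Mef2c, a factor of muscle and bone, was lower, at no more than 18.4 FPKM in any MCAGF8 library against 30.2 to 39.2 FPKM in controls (-1.19 ± 0.22, SE; limma adjusted p = 0.0768).

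None of these 4 genes overlapped between the vault groups, but none of the calls held without any 1 of MCAGF8 vault replicates 1 to 3 or without control vault replicate 1 or 3, where 0 of the list genes were called. On libraries rescaled to a common FPKM sum 2 of the list genes were called, both higher. Markers of other tissue moved with these genes. The epidermis sums given above were higher in each MCAGF8 library than in any control vault library, with Dsg3 listed at 0 in 1 library. By median, Epcam alone of the epidermis markers went the other way, at 6.70 FPKM in MCAGF8 and 11.6 FPKM in the control vault. The skeletal muscle sums given above were lower in MCAGF8 in each library. The part of epidermis and muscle in the Tfap2a, agouti and Mef2c differences was not tested.

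Against the control base limma called 30 of the 99 list genes in the MCAGF8 vault, 16 higher and 14 lower, and 21 and 12 on libraries rescaled to a common FPKM sum. Of all genes, 2.98% were called higher and 5.41% lower in this comparison, and the comparisons share libraries. The highest were Lmx1b (3.95 ± 0.28, SE; limma adjusted p = 0.000285), Msx2 (3.19 ± 0.20, SE; limma adjusted p = 0.000122), agouti (2.89), Msx1 (2.61), Alx4 (2.47) and En1 (2.25). Msx1, the partner of Msx2 in palate and skull, was at 75.9 to 153 FPKM in MCAGF8 and at 8.13, 11.7 and 66.7 FPKM in the base. The lowest were Isl1 (-4.47 ± 0.51, SE; limma adjusted p = 0.00347), Barx1 (-4.37), Islr2 (-3.64), Pax9 (-3.18), Pitx1 (-3.05) and Msc (-2.81). Islr2 was at 8.53, 22.7 and 82.8 FPKM in control base replicates 1 to 3. Isl1, Islr2 and the neuron marker sums given above rose in the same order over these replicates. The part of neural tissue in the Isl1 and Islr2 differences was not tested. Barx1, a factor of oral and pharyngeal mesenchyme, was at 132, 15.9 and 156 FPKM in the base and 1.02 to 7.24 FPKM in MCAGF8, so its lowest base value was again in replicate 2. Pitx1, a hindlimb and oral factor, ranged from 2.24 to 24.6 FPKM in the base and from 0.116 to 0.286 FPKM in MCAGF8. Msc, a muscle factor under Tbx1, was at 12.0 to 36.8 FPKM in the base and 0.767 to 6.96 FPKM in MCAGF8, beside the skeletal muscle sums given above. The call of Msx1 was lost without control base replicate 1 or without MCAGF8 vault replicate 1 or 2, and those of Barx1, Pitx1 and Msc were lost without 4 or 5 single libraries each, control base replicates 1 and 3 among them. Without MCAGF8 vault replicate 1 or 2 the number of list genes called was 14 or 19.

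By list, in this comparison 6 of 18 genes on the Tbx2 and Tbx3 list were called higher and 2 lower, 5 and 2 of 19 on the Tbx15 and Tbx18 list, 5 and 3 of 18 on the Tbx22 list, 2 and 6 of 13 on the Tbx4 and Tbx5 list, and 1 and 4 of 23 on the Tbx1 list. The median log2 differences of these lists were 0.21, 0.37, -0.06, -1.17 and -0.21, beside -0.07 over all genes. Cdkn1a, a cell cycle inhibitor known as a target that Tbx2 and Tbx3 repress, was at 17.5, 24.6 and 22.4 FPKM in the MCAGF8 vault and at 117, 39.6 and 110 FPKM in the base, where these repressors were also higher. Its log2 difference was -1.86 ± 0.39 (SE; limma adjusted p = 0.0272), and the call was lost without MCAGF8 vault replicate 1 (limma adjusted p = 0.128). Gja1, another known target, was at 505 ± 56.5 FPKM (SD, n = 3) in MCAGF8 and 141 ± 13.9 FPKM (SD, n = 3) in the base (1.83 ± 0.18, SE; limma adjusted p = 0.00173). Cdkn1a was named after its values were seen.

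Around the members themselves, 13 annotated neighbouring genes were tested. Limma called 3 of them, all lower in the MCAGF8 vault than in the control base, and none in the other comparisons, where 3 were at an unadjusted p under 0.05 for base against control vault and 0 for MCAGF8 against control vault. These 3 are noncoding transcripts that lie against Tbx2 or Tbx3 on the opposite strand. 2610027K06Rik, 328 bases from Tbx2, was at 1.93 to 2.72 FPKM in the base, 0.790 to 1.34 FPKM in the control vault and 0.376 to 0.863 FPKM in the MCAGF8 vault (-0.94 ± 0.23 for MCAGF8 against base, SE; limma adjusted p = 0.0485). Tbx3os1, which overlaps Tbx3, was at 2.37, 8.07 and 5.70 FPKM in the base and at most 1.35 FPKM in the MCAGF8 vault (-1.81 ± 0.47, SE; limma adjusted p = 0.0621). Tbx3os2, 371 bases beyond Tbx3, was at 0.284, 1.87 and 4.33 FPKM in the base and at most 0.102 FPKM in any vault library (-1.41 ± 0.43, SE; limma adjusted p = 0.0994). These 3 genes were called in 9, 5 and 3 of 16 alternative fits, with adjusted p from 0.0127 to 0.267. Of the 3, Tbx3os1 shares bases with a member, and without the strand of counting its reads there cannot be told apart from those of Tbx3.

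None of the coding neighbours tested was called by limma in any of the 3 comparisons. Bcas3, 6493 bases before Tbx2, was at 14.7 to 21.1 FPKM over all libraries, and Gnb1l, beside Tbx1, was at 6.64 to 11.2 FPKM. Wars2, beside Tbx15, differed by 0.08 between the vaults (limma adjusted p = 0.984).

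Profiles most like a member were ranked by Pearson's r of log2(FPKM + 1) over the 9 libraries. The genes compared were the 12933 or 12934 with a mean of at least 5 FPKM over the 9 libraries. The 9 libraries fall into 3 groups, so r takes in differences between groups as well as within them, and it is given with no test. For Tbx1 they were Gm13992 (r = 0.96), listed at 0 in every vault library, Spint2 (r = 0.95), an epithelial protease inhibitor, and Foxf2 (r = 0.94), a palate mesenchyme factor at 20.2 to 48.0 FPKM in the base and 0.755 to 2.90 FPKM in the vaults. For Tbx2 they were Rtn1 (r = 0.98), Hap1 (r = 0.98) and Prph (r = 0.97), and for Tbx3 Pirt, Snx10 and Cplx1 (r = 0.98 to 0.99). Prph, the intermediate filament of peripheral neurons, was at 92.1, 104 and 559 FPKM in the base and 0.911 to 11.3 FPKM in the vaults. Tbx15 was followed by Adamtsl1 (r = 0.98), Prss35 (r = 0.97) and Rbm43 (r = 0.97), and Tbx18 by Gm1826, Tbc1d4 and Slc38a3 (each r = 0.96). Adamtsl1 was at 13.9 to 17.3 FPKM in the base, 25.0 to 29.6 FPKM in the control vault and 33.9 to 39.3 FPKM in the MCAGF8 vault, the same order of groups as Tbx15. Among the members, Tbx2 and Tbx15 ran opposite to each other across the libraries (r = -0.99), and Tbx2 ran with Tbx3 (r = 0.92).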

How the data were processed

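RNA from E14.5 skull tissue was measured in 9 libraries, 3 pools in each of 3 groups named by the labels. The authors prepared stranded mRNA libraries, mapped single-end reads with gSNAP, derived expression with Cufflinks (also named in the submitters' processing notes) and compared groups by ANOVA in R. What they deposited is a single table of FPKM by Ensembl identifier. The versions, build and annotation behind it are not given in the sources used for this work, so symbols and coordinates come from GENCODE M21 (GRCm38) by Ensembl identifier. The read depth is unknown, because Cufflinks FPKM do not return it, and no counting interval is given. Summed FPKM per library ran from 793249 to 1315981.

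The members and all lists were chosen with earlier results of these data known. Of 43611 rows, the 63 that repeated an identifier were added to its other row, and 9 genes with the placeholder 999999999 were left out. The 18714 genes with a mean of at least 0.5 FPKM were fitted on log2(FPKM + 1) with limma 3.58.1 in R 4.3.3 (1 mean per group over all 9 libraries, eBayes with a trend, two-sided tests), which was tested on simulated data. Differences are on that scale and understate those of low genes. Calls required an unadjusted p under 0.05 with an adjusted p (Benjamini-Hochberg) under 0.1. P-values measure the spread between 3 pools per group.

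Genes are named by a rule: the 9 members, the 8 other T-box genes, Fgf8, at most the 6 highest and 6 lowest called list genes per comparison with a mean of at least 1 FPKM in the higher group, the 3 genes most like each member with a group mean of at least 5 FPKM, tested neighbours, and markers where a library stands apart. Wnt2b, Prrx1 and Cdkn1a were named beyond this rule. The alternatives were a pseudocount of 0.1, no filter or a mean of at least 5 FPKM, quantile normalization, rescaled sums, the 6 libraries of both groups, a replicate block, no moderation, and leaving out each library. Deviations from the group means correlated at -0.549 to 0.37 between same-numbered libraries and at -0.482 to 0.563 between the others. With 3 libraries per group this cannot show whether the numbers mark pairs, and they were not taken as pairs. Sequences were read with Biopython 1.88, plots drawn with matplotlib 3.10.9, and the remaining steps run in pandas 2.3.3, numpy 2.4.6 and Python 3.11.15.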

Additional observations from a re-analysis of the deposited data

How the results depend on the processing

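Of 237 values of the members' log2 differences under a pseudocount of 0.1, quantile normalization, rescaled sums or with a library left out, 232 kept their sign, and the other 5 concern Tbx3 between the vaults and Tbx18 between base and control vault (0.11 and 0.23 without control base replicate 1 or 3, against -0.32). Tbx5 and Tbx20, below the filter, have no quantile value. Rescaling moved the median of all genes to 0.13 for MCAGF8 against control vault and to 0.11 for MCAGF8 against base. Counts of calls moved more. For base against control vault, 573 genes were called (347 higher, 226 lower), 291 at a mean of at least 5 FPKM, 108 with the 6 libraries of both groups, 257 without moderation, and 236 higher and 390 lower after quantile normalization. The 13 list genes became 7 with the 6 libraries. For MCAGF8 against control vault, 113 genes became 191 with a pseudocount of 0.1, 66 without the filter, 71 at a mean of at least 5 FPKM, 174 with the 6 libraries and 0 without moderation (1186 genes had an unadjusted p under 0.05 by limma), and the 4 list genes became 1 without the filter, 2 after rescaling and 0 without moderation. For MCAGF8 against base, 1571 genes (558 higher, 1013 lower) became 834 at a mean of at least 5 FPKM, 875 with the 6 libraries and 869 without moderation, with 1153 higher and 810 lower after quantile normalization and 776 and 829 after rescaling; the 30 list genes became 19 with the 6 libraries and 17 without moderation. With the replicate block the genes called were 234, 19 and 918 in the 3 comparisons, and the list genes 13, 0 and 23. Leaving out 1 library gave 132 to 1322, 11 to 231 and 559 to 4580 genes and 7 to 23, 0 to 6 and 14 to 44 list genes. The highest of each came without control base replicate 2, and the lowest without control vault replicate 3 (base against control vault), control vault replicate 1 or 3 (all genes, MCAGF8 against control vault) and MCAGF8 vault replicate 1 (MCAGF8 against base). The count over all genes also moved by over 1.5 times without control base replicate 1, MCAGF8 vault replicate 1 or 3 or control vault replicate 1 or 2 (base against control vault), without each MCAGF8 vault replicate (MCAGF8 against control vault), and without MCAGF8 vault replicate 2 or 3 (MCAGF8 against base). The cause of these shifts was not tested. The depth is unknown, so values near 0 carry no limit of detection.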
